A study of Mus musculus with 8 samples.

Results

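The PGC-1 coactivators, the PPARs and the transcription factors that drive mitochondrial biogenesis were examined in mouse calvarial osteoblasts treated with PTH. The 10 genes were *Ppargc1a*, *Ppargc1b*, *Pprc1*, *Ppara*, *Ppard*, *Pparg*, *Esrra*, *Nrf1*, *Gabpa* and *Tfam*, selected by symbol from the 47706 rows of the deposited gene table. Each symbol had 1 row, and all 10 were among the 16736 rows with enough counts to be tested. RNA sequencing covered 8 cultures of primary calvarial osteoblasts, 4 treated with PTH (the parathyroid hormone fragment that activates the PTH receptor) and 4 with vehicle, each for 24 hours at day 7 of differentiation. The study's methods describe cells from the skullcap of neonatal mice, osteogenic medium and a period of serum starvation before treatment, whereas the sample labels call the differentiation adipogenic. All samples carry the prefix Con in their labels, which is not explained there, and no transgene or deletion is named for these cultures. The strain and sex of the mice are not given in the sources used here. The labels also do not say whether replicates came from separate preparations of cells, so that p-values measure the spread between these samples, which may be technical.

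PGC-1α, PGC-1β and PRC (encoded by *Ppargc1a*, *Ppargc1b* and *Pprc1*) are coactivators that do not bind DNA themselves but dock on transcription factors and raise their activity. Their partners include the PPARs, nuclear receptors that sense fatty acids and act as heterodimers with RXRs, and ERRα (*Esrra*), NRF-1 (*Nrf1*) and GABPα (*Gabpa*, also known as NRF-2α), which drive nuclear genes for respiration. One such target is *Tfam*, whose product packages mitochondrial DNA and starts its transcription. *Ppargc1a* is best known as a cAMP-responsive gene of brown fat, muscle and fasting liver, and the PTH receptor of osteoblasts signals through cAMP. PPARγ drives adipocyte formation, and its activation in marrow progenitors is known to favor fat over bone.

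Promoters of 3 genes are shown, for the coactivator gene best known for cAMP control, for the PPAR with the highest level in PTH-treated cultures and for the nuclear receptor that PGC-1α is known to induce. The sequences come from RefSeq (GRCm38.p6), are read 5′ to 3′ on the strand of the gene and stop just before the first base transcribed in the GENCODE M21 annotation of GRCm38. Capitals mark a match to a short CRE motif (TGACG, the core bound by CREB) in *Ppargc1a* and to the NRF-1 core GCATGCGC in *Esrra*. The CRE match lies on the opposite strand and so is printed as the reverse complement CGTCA. The *Ppard* stretch held no match to any of the motifs searched.
Ppargc1a, chr5:51567727-51567975, minus strand: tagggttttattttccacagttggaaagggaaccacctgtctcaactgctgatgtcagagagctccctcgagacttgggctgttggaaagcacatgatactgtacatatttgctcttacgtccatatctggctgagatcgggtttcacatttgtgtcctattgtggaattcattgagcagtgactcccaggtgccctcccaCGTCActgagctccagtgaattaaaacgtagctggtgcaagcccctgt
Ppard, chr17:28232504-28232699, plus strand: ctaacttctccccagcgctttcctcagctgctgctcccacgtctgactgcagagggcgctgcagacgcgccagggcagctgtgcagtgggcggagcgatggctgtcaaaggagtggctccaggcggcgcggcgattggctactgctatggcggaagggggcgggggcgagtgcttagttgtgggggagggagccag
Esrra, chr19:6921814-6922058, minus strand: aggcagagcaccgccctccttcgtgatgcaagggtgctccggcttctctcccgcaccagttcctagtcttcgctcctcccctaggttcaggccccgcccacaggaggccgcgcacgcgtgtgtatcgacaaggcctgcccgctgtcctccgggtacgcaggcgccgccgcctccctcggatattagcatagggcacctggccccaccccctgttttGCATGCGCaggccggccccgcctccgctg

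Motifs were searched on both strands of the 250 bases before each RefSeq start. RefSeq listed 12 promoters for 9 of the 10 genes, with 3 for *Pparg*, 2 for *Nrf1* and none for *Ppargc1b*. The short CRE motif was found in the promoters of *Ppargc1a* (49 to 45 bases before the start) and *Ppara* (222 to 218 bases before it), and 17.8% of 32851 mouse promoters held one. The full CRE TGACGTCA, which contains the short one, was found in 0 of the 12 promoters and in 1.55% of all. The NRF-1 core was found in *Esrra* (34 to 27 bases before the start) and *Ppara* and in 2.26% of all promoters, and the GABP core CCGGAAG in *Tfam* and in *Gabpa* itself, against 6.91% of all. The ERR element TCAAGGTCA was in 0 of the 12 and in 0.387% of all promoters. These matches describe the letters in the window and do not show binding.

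Total counts ranged from 33605610 to 56090654 in PTH-treated and from 41618108 to 46757836 in vehicle-treated samples. Values are given as CPM, counts relative to library size after TMM scaling of the libraries by edgeR. As a check of the labels, *Tnfsf11* (RANKL, a well-known PTH response gene) was at 1.416 ± 0.365 CPM in the vehicle samples and at 128 ± 20.0 CPM in the PTH samples (SD, n = 4). The median of 10 osteoblast markers lay between 208 and 334 CPM per vehicle sample and between 225 and 353 CPM per PTH sample, and that of 10 adipocyte markers between 2.67 and 5.24 CPM and between 3.42 and 5.78 CPM. Of the 10 osteoblast markers, 3 were called and were downregulated, beside 22.5% of all tested genes. They were *Sp7* (osterix, log2 fold change -1.78, edgeR adjusted p = 4.45e-06), *Dmp1* (-1.12, edgeR adjusted p = 8.06e-04) and *Runx2* (-0.33, edgeR adjusted p = 0.00362). The cultures thus expressed osteoblast genes far above adipocyte genes, and *Adipoq*, which defines adipocytes, was at 3.48 CPM with vehicle and 3.86 CPM with PTH. Macrophage markers were present (10 of 10 measured), with a summed level of 1041 to 1688 CPM with vehicle and 1632 to 2113 CPM with PTH. Of these 10, 3 were upregulated, beside 23.3% of all tested genes. Muscle markers summed to at most 10.7 CPM and endothelial markers to at most 6.97 CPM in any sample, with *Emcn* at 0. In bulk RNA, fewer cells of a type and less RNA per cell cannot be told apart, and the part of other cell types in the results below was not tested.

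PTH raised *Ppargc1a*, *Ppargc1b* and *Ppard* and lowered *Pparg*, *Gabpa* and, less firmly, *Ppara*. The 2 coactivator genes showed the largest changes, 4.27-fold for *Ppargc1a* and 7.42-fold for *Ppargc1b*, but both were at low levels in vehicle-treated cells. Among the PPARs, *Ppard* rose 3.27-fold while *Pparg* was 2.83-fold higher in vehicle than in PTH samples. No difference was called for *Pprc1*, *Esrra*, *Nrf1* and *Tfam*. Thus 3 of 10 genes were upregulated and 3 were downregulated at an adjusted p under 0.05 (edgeR's quasi-likelihood test, two-sided, Benjamini-Hochberg adjustment over all 16736 genes), when 23.3% of all tested genes were upregulated and 22.5% were downregulated. In 5 of the 10 genes the 4 PTH samples did not overlap the 4 vehicle samples, which was so for 43% of all tested genes. These counts are near those of the whole transcriptome, and it is the size of some single changes that stood out. The 4 genes with the largest changes were compared with all tested genes in absolute log2 fold change. *Ppargc1b*, with 17 to 44 counts per vehicle sample, exceeded 98.3% of them, *Ppargc1a* 96.8%, *Ppard* 95.3% and *Pparg* 93.9%. For *Pprc1*, *Esrra*, *Nrf1* and *Tfam* the absolute log2 fold change was 0.19 or less.

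**Figure D1:**
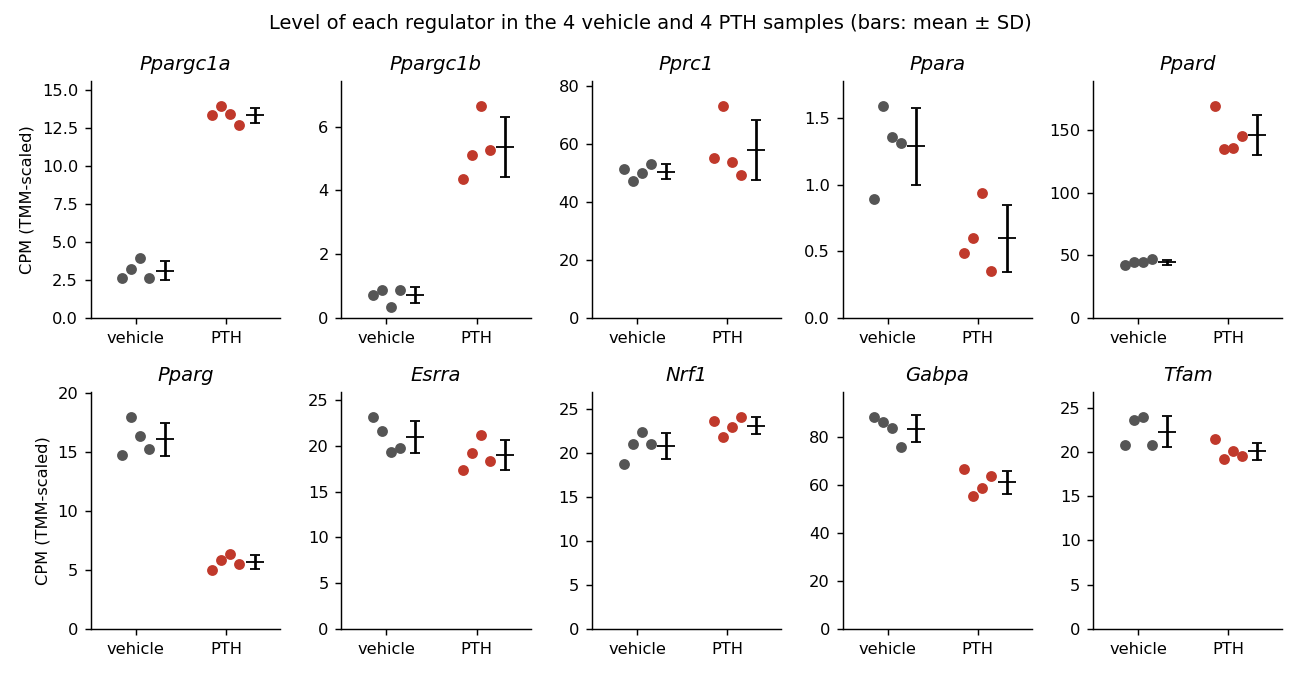
Level of each of the 10 genes in CPM (linear axis from 0, scaled per panel) in the 4 vehicle-treated (grey) and 4 PTH-treated (red) samples, with mean ± SD in black. The treatments separate for *Ppargc1a*, *Ppargc1b*, *Ppard*, *Pparg* and *Gabpa* and overlap for the other 5 genes.

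*Ppargc1a* (chr5:51454250-51567726, minus strand, GRCm38) was at 2.66, 3.21, 3.98 and 2.64 CPM in vehicle samples 1 to 4 and at 13.3, 13.9, 13.4 and 12.7 CPM in PTH samples 1 to 4. Every PTH sample was above every vehicle sample, and the PTH samples lay close together at 13.4 ± 0.487 CPM, against 3.12 ± 0.633 CPM with vehicle (SD, n = 4). The log2 fold change was 2.09 (SE 0.141; edgeR adjusted p = 1.75e-07), resting on 119 to 191 counts per vehicle sample and 463 to 684 per PTH sample. An exact permutation test on log2(CPM + 0.1) gave a two-sided p of 0.0286, the smallest that 70 assignments of 4 and 4 samples can give. The gene has the CRE motif shown above in its RefSeq promoter, as had 17.8% of all mouse promoters searched. *Ppara*, which was lower with PTH, has the motif too, and whether it takes part in the response was not tested.

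*Ppargc1b* (chr18:61298136-61400431, minus strand) encodes PGC-1β, which shares partners with PGC-1α and is known to support basal respiration. It was at 0.736, 0.895, 0.355 and 0.887 CPM in the vehicle samples and at 4.37, 5.12, 6.63 and 5.28 CPM in the PTH samples. Again no vehicle sample reached the PTH samples, although the vehicle counts were few, from 17 to 44 per sample. The means were 0.718 ± 0.253 and 5.35 ± 0.941 CPM, a log2 fold change of 2.89 (SE 0.274; edgeR adjusted p = 3.90e-06; exact permutation p = 0.0286).

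*Pprc1* (chr19:46044886-46072915, plus strand) encodes PRC, the family member known for induction by serum. Its vehicle samples held 51.6, 47.3, 50.2 and 53.4 CPM and its PTH samples 55.2, 73.1, 54.0 and 49.6 CPM. PTH sample 2 stood above the rest and PTH sample 4 lay within the vehicle range. The log2 fold change was 0.19 with a 95% interval of -0.04 to 0.43 (edgeR adjusted p = 0.159; exact permutation p = 0.2), so that a change of the size seen in the other coactivator genes lay outside the interval.

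*Ppard* (chr17:28232700-28301474, plus strand) encodes PPARδ, the broadly expressed PPAR that activates fatty acid oxidation genes. It was at 42.0, 44.4, 44.8 and 47.0 CPM with vehicle and at 168, 134.5, 135 and 145 CPM with PTH. All 4 PTH samples stood far above the narrow vehicle range. Means were 44.5 ± 2.04 and 146 ± 15.9 CPM, and the log2 fold change of 1.71 (SE 0.0812) had the lowest adjusted p of the 10 genes (edgeR, 7.97e-09; exact permutation p = 0.0286).

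*Pparg* (chr6:115360951-115490399, plus strand) moved the other way. It was at 14.7, 17.9, 16.3 and 15.2 CPM with vehicle and at 4.96, 5.87, 6.32 and 5.54 CPM with PTH. The lowest vehicle sample was well above the highest PTH sample. The means were 16.04 ± 1.425 and 5.67 ± 0.573 CPM, and expression fell by 1.503 on the log2 scale (SE 0.110; edgeR adjusted p = 3.66e-07; exact permutation p = 0.0286). The summed level of the adipocyte markers, 42.3 to 62.6 CPM with vehicle and 49.1 to 73.2 CPM with PTH, overlapped between treatments. Of the 9 tested, 1 was called, *Lipe* (hormone-sensitive lipase), which was upregulated. Among all tested genes, 23.3% were upregulated and 22.5% downregulated.

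*Ppara* (chr15:85734983-85802819, plus strand), the PPAR of liver and heart that drives fatty acid oxidation, was the least certain of the called genes. It was at 0.892, 1.58, 1.36 and 1.31 CPM with vehicle and at 0.488, 0.602, 0.940 and 0.357 CPM with PTH. The groups overlapped, as PTH sample 3 lay above vehicle sample 1. With only 15 to 69 counts per sample, the gene fell by 1.11 on the log2 scale (SE 0.359; edgeR adjusted p = 0.0236), while the exact permutation test gave p = 0.0571. The call was lost without PTH replicate 4 (log2 fold change -0.93, edgeR adjusted p = 0.0628), without vehicle replicate 2 (-1.01, 0.0686) or without vehicle replicate 3 (-1.09, 0.0542).

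**Figure D2:**
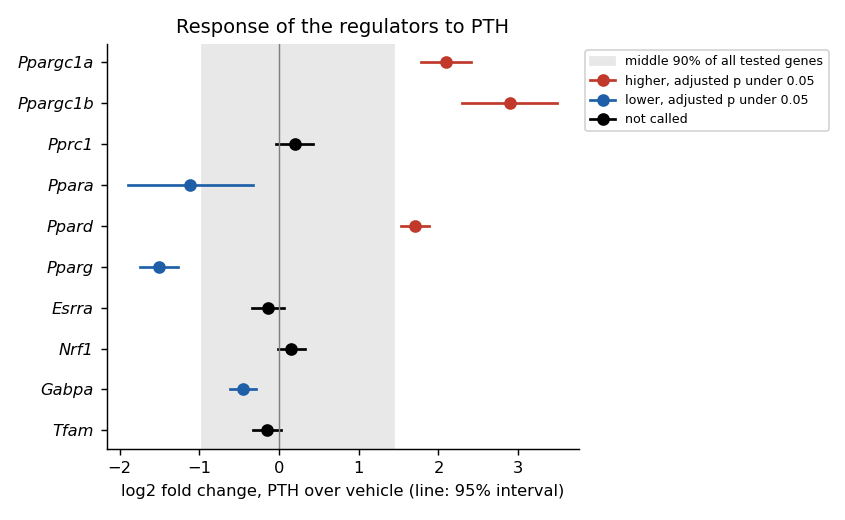
Log2 fold change (PTH over vehicle) of the 10 genes with its 95% interval from edgeR, colored by the call. The grey band holds the middle 90% of all tested genes, from -0.96 to 1.44, and *Ppargc1a*, *Ppargc1b* and *Ppard* lie above it and *Pparg* and *Ppara* below it.

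Levels of different genes were compared as CPM per kb of exon, which takes out gene length. In these units the PPAR family summed to between 10.8 and 12.4 per vehicle sample and between 20.0 and 24.2 per PTH sample. *Ppard* and *Pparg* were at like levels with vehicle, making up 50.7% and 46.4% of the family sum on average, and *Ppara* 2.85%. With PTH, *Ppard* made up 90.2% (88.3% to 92.6% per sample), *Pparg* 9.04% (6.93% to 10.5%) and *Ppara* 0.737%. Among the coactivators, *Pprc1* made up 92.5% of the family sum with vehicle and 73.0% with PTH (69.9% to 77.4% per sample). The share of *Ppargc1a* was 5.46% with vehicle and 16.2% with PTH, and that of *Ppargc1b* 2.07% and 10.8%. With the length of the longest coding transcript in place of all exons, a choice made after the data were seen, the *Ppard* shares were 63.2% and 93.9% and those of *Pparg* 35.1% and 5.71%.

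**Figure D3:**
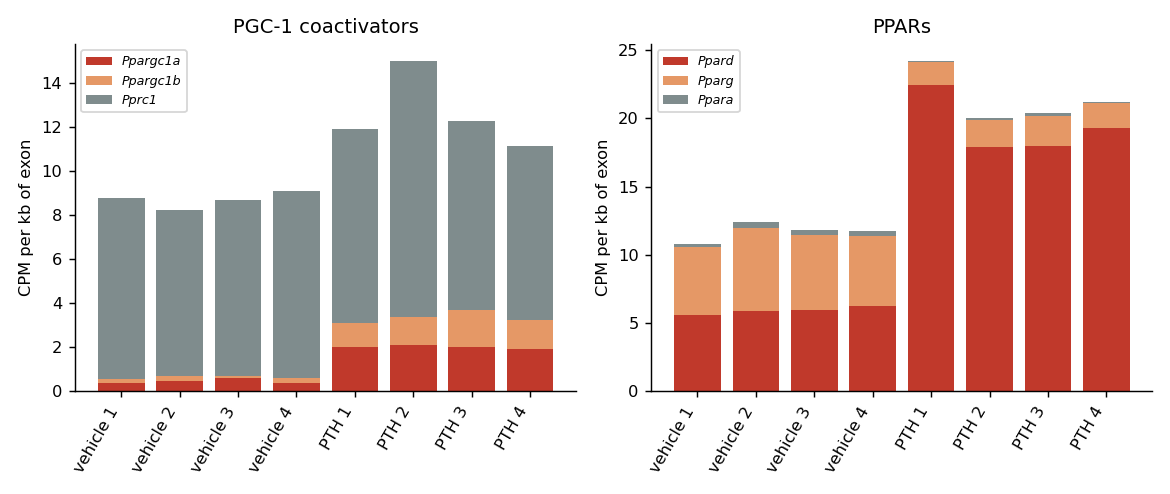
Stacked CPM per kb of exon of the PGC-1 coactivator genes (left) and the PPAR genes (right) in each sample. The PPAR sum is higher in every PTH sample (at least 20.0) than in every vehicle sample (at most 12.4) and is almost all *Ppard* with PTH, whereas *Pprc1* is the largest part of the coactivator sum in all 8 samples.

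In a within-sample comparison, the log2 ratio of *Ppard* to *Pparg* CPM was 1.47 ± 0.133 with vehicle and 4.66 ± 0.292 with PTH (SD, n = 4), a 9.12-fold higher ratio with PTH. The ratio was higher in every PTH sample than in any vehicle sample (exact permutation p = 0.0286, adjusted over 3 ratios 0.0857). Since 0.0286 is the smallest p possible, an adjusted p under 0.05 required at least 2 of the 3 ratios to reach it. For *Ppargc1a* to *Ppargc1b* the log2 ratio was 2.02 ± 0.772 with vehicle and 1.32 ± 0.249 with PTH, a difference of -0.70 that did not pass (exact permutation p = 0.0571, adjusted 0.0857). Vehicle sample 3 was the highest, and the difference was -0.32 without it, -0.89 without vehicle replicate 4 (exact permutation, adjusted p = 0.0429) and -0.08 with a pseudocount of 1 in place of 0.1. The ratio of *Esrra* to *Nrf1* differed by -0.29 (exact permutation p = 0.114, adjusted 0.114).

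Of the transcription factors for respiratory genes, *Gabpa* (chr16:84834925-84863779, plus strand), the DNA-binding subunit of GABP, was downregulated. It was at 88.5, 86.6, 83.7 and 76.0 CPM with vehicle and at 66.6, 55.6, 59.0 and 63.8 CPM with PTH. The lowest vehicle sample was above the highest PTH sample. Expression fell by 0.45 on the log2 scale (SE 0.0752; edgeR adjusted p = 4.19e-04; exact permutation p = 0.0286), a smaller log2 difference than those of *Ppard* and *Pparg*. Its partner subunit *Gabpb1* rose slightly (log2 fold change 0.21, edgeR adjusted p = 0.0363) and *Gabpb2* did not pass the test (-0.18, edgeR adjusted p = 0.116).

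*Esrra* (chr19:6910977-6921813, minus strand) was at 23.2, 21.6, 19.4 and 19.8 CPM with vehicle and at 17.3, 19.2, 21.2 and 18.3 CPM with PTH. PTH sample 3 was above both of the lower vehicle samples, and the log2 fold change of -0.14 had a 95% interval of -0.34 to 0.06 (edgeR adjusted p = 0.225; exact permutation p = 0.143). The other ERR genes were barely expressed: *Esrrb* had at most 12 counts and *Esrrg* at most 15 in any sample, too few to be tested.

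*Nrf1* (chr6:30047988-30153458, plus strand) was at 18.8, 20.96, 22.3 and 21.05 CPM with vehicle and at 23.6, 21.8, 22.9 and 24.1 CPM with PTH. Only vehicle sample 3 reached into the PTH range. The log2 fold change was 0.15, with a 95% interval of -0.02 to 0.32 (edgeR adjusted p = 0.131; exact permutation p = 0.0571). *Tfam* (chr10:71225464-71238280, minus strand), the mitochondrial DNA packaging factor that lies downstream of these regulators, was at 20.8, 23.6, 24.0 and 20.8 CPM with vehicle and at 21.4, 19.2, 20.2 and 19.5 CPM with PTH. PTH sample 1 was above the lower vehicle samples. Its log2 fold change was -0.15, with a 95% interval of -0.33 to 0.03 (edgeR adjusted p = 0.151; exact permutation p = 0.0857). For *Esrra*, *Nrf1* and *Tfam* the intervals thus leave room for small changes only, and none reaches the size of the *Ppargc1a* change. The ends of *Gabpa*, *Esrra* and *Pprc1* overlap *Atp5j*, *Trmt112* and *Ldb1* on the opposite strand, and with a strand setting that is not given in the sources used here reads from those stretches cannot be told apart.

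The order of levels per kb of exon with vehicle was *Gabpa* (14.7), *Pprc1* (8.06), *Ppard* (5.93), *Pparg* (5.43), *Tfam* (5.02), *Esrra* (4.78), *Nrf1* (2.02), *Ppargc1a* (0.474), *Ppara* (0.335) and *Ppargc1b* (0.180). Sample ranges of neighbors overlapped from *Ppard* through *Esrra* and between *Ppargc1a* and *Ppara*. Within every vehicle sample, *Pparg* was still above *Tfam* and *Ppargc1a* above *Ppara*. The order of *Ppard* and *Pparg* and that of *Tfam* and *Esrra* differed between vehicle samples. Differences between neighbors were not tested. With PTH the order was *Ppard* (19.4), *Gabpa* (10.8), *Pprc1* (9.23), *Tfam* (4.52), *Esrra* (4.34), *Nrf1* (2.25), *Ppargc1a* (2.03), *Pparg* (1.92), *Ppargc1b* (1.34) and *Ppara* (0.155). Here *Gabpa* overlapped *Pprc1*, *Tfam* overlapped *Esrra* and *Ppargc1a* overlapped *Pparg*. *Ppard* went from the third to the first place and *Pparg* from the fourth to the eighth. With longest coding transcripts the middle of the order differed, *Ppard* being second with vehicle (13.6) and again first with PTH (44.5).

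Gene lists around these regulators were described by counts and medians. Beside them stand the median of all tested genes, -0.0008 on the log2 scale, and the shares called, 23.3% upregulated and 22.5% downregulated. Of 24 partners and modifiers of PGC-1 and PPARs, 22 could be tested, of which 7 were upregulated, 8 downregulated and 7 not called (median log2 fold change -0.08). The largest decrease was that of *Rxrb* (log2 fold change -0.68, edgeR adjusted p = 6.78e-06), and its paralog *Rxra*, also an obligate PPAR partner, fell by 0.55 (edgeR adjusted p = 1.54e-05). Chosen after their values were seen, *Nrip1* (RIP140, a corepressor that opposes PGC-1α) rose by 1.18, *Lpin1* (a PGC-1α-induced coactivator and lipid phosphatase) by 0.97 and *Sirt1* (the deacetylase of PGC-1α) by 0.56, while *Prkaa2*, a catalytic subunit of AMPK, fell by 0.67 (edgeR adjusted p at most 7.56e-04 for each). Its paralog *Prkaa1*, at 44.5 CPM with vehicle against 9.19 CPM for *Prkaa2*, was not called (-0.22, edgeR adjusted p = 0.0712). Corepressor genes were found in both directions, as *Ncor1* fell by 0.23, and all 3 p160 coactivators (*Ncoa1*, *Ncoa2* and *Ncoa3*) decreased, by 0.23 to 0.28.

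Of 25 known PPAR target genes, 24 were tested, with 8 upregulated, 5 downregulated and 11 not called (median 0.03). The shares among all tested genes were 23.3% upregulated and 22.5% downregulated. *Fgf21*, a secreted metabolic hormone, had 3 to 7 counts per vehicle sample and 109 to 223 per PTH sample, and rose from 0.0969 to 4.26 CPM (log2 fold change 5.42, SE 0.311; edgeR adjusted p = 4.29e-08). *Cpt1b*, an isoform of the carnitine palmitoyltransferase that admits fatty acids to mitochondria, rose by 1.51 (edgeR adjusted p = 0.0213) from a low 0.353 CPM. Its treatments overlapped, with up to 0.580 CPM with vehicle and as little as 0.449 CPM with PTH. Its assembled locus also held 1 other gene symbol. The more abundant *Cpt1a* fell by 0.37 from 97.5 CPM (edgeR adjusted p = 7.23e-04). The decreases were those of *Pdk4* (by 0.77), *Pex11a* (by 0.59), *Ehhadh* (by 0.56), *Cpt1a* and *Acaa2* (by 0.28), and among them *Pdk4*, which inhibits pyruvate dehydrogenase and is one of the best known PPARδ targets, changed in the direction opposite to *Ppard*. The number of downregulated targets was 3 without PTH replicate 2 or 4 or vehicle replicate 1 or 2, and that of upregulated targets was 5 without vehicle replicate 2 or 3.

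Of 20 known ERR and NRF-1 targets outside the respiratory chain subunits, 8 were upregulated, 2 downregulated and 10 not called (median 0.11). Among all tested genes, 23.3% were upregulated and 22.5% downregulated. *Alas1*, the rate-limiting enzyme of heme synthesis and a PGC-1α target, rose from 48.5 to 240 CPM (log2 fold change 2.31, SE 0.0747; edgeR adjusted p = 2.42e-10). *Tomm20* of the outer membrane import complex rose by 0.97, the copper chaperone *Cox17* by 0.96 and cytochrome c (*Cycs*) by 0.85 (edgeR adjusted p at most 0.00207 for each). *Tfb1m*, a methyltransferase of mitochondrial ribosomal RNA, fell by 1.25 (edgeR adjusted p = 5.32e-04) and citrate synthase (*Cs*) by 0.19 (edgeR adjusted p = 0.0337). The downregulated count was 1 without PTH replicate 2, 3 or 4 or vehicle replicate 2, 3 or 4.

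Of 22 genes for the transcription and upkeep of mitochondrial DNA, where *Tfam* acts, 4 were upregulated, 7 downregulated and 11 not called (median log2 fold change -0.30), beside 23.3% and 22.5% of all tested genes. Their summed level was 321 to 333 CPM per vehicle sample and 280 to 370 CPM per PTH sample, so that the PTH range spanned that of vehicle. The largest decrease was that of *Tfb1m*, followed by *Mgme1* (a mitochondrial exonuclease, by 1.06), *Twnk* (the replicative helicase, listed under its older symbol *Peo1*, by 1.03) and *Mterf2* (by 1.002). *Primpol*, the primase-polymerase, fell by 0.67 (edgeR adjusted p = 7.40e-04), whereas the RNA polymerase *Polrmt* and the DNA polymerase subunit *Polg* were not called, *Polrmt* at -0.29 (edgeR adjusted p = 0.0530) and *Polg* at -0.15 (edgeR adjusted p = 0.233). The increases were *Slirp* (0.70) and *Lrpprc* (0.21), which together stabilize mitochondrial mRNAs, *Mterf4* (0.59) and the protease *Lonp1* (0.22). The upregulated count was 1 without vehicle replicate 2 and 2 without PTH replicate 2 or 3 or vehicle replicate 1 or 3, and the downregulated count was 11 without PTH replicate 2.

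Of 11 tested genes encoded by mitochondrial DNA itself, 8 were upregulated and 3 were not called (median log2 fold change 0.49). Among all tested genes, 23.3% were upregulated. The count of 8 depended on single samples and on the tool, being 5 with DESeq2 and 5 with the replicate number as a block. Called changes ran from 0.38 for *mt-Nd3* (edgeR adjusted p = 0.0163) to 0.61 for *mt-Atp6* (edgeR adjusted p = 0.0255). The sums of the 13 genes were 14018, 12046, 14938 and 12726 CPM in vehicle samples 1 to 4 and 12918, 26020, 19523 and 15772 CPM in PTH samples 1 to 4. The ranges overlapped, PTH sample 1 being within the vehicle range, and PTH sample 2, the library with the lowest total count, was the highest. The upregulated count was 4 without PTH replicate 2, PTH replicate 3 or vehicle replicate 4, 5 without vehicle replicate 1, 2 without vehicle replicate 2 and 11 without PTH replicate 1. *mt-Nd4* had 7 counts in every sample beside at least 57715 for *mt-Nd4l*, which overlaps it, so that the split of reads between them is uncertain. The libraries were poly(A)-enriched, and mitochondrial DNA copy number was not measured.

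Of 14 genes for mitochondrial fusion and fission, 2 were upregulated (*Fis1* by 0.43 and *Mfn2* by 0.20), 3 downregulated (*Oma1* by 0.49, *Slc25a46* by 0.32 and *Mtfr1* by 0.18) and 9 not called (median -0.13). The shares among all tested genes were 23.3% upregulated and 22.5% downregulated. The upregulated count was 1 without PTH replicate 3, vehicle replicate 1 or vehicle replicate 4. Among 7 brown adipocyte markers, of which 6 were tested, 3 were called and were upregulated, beside 23.3% of all tested genes. *Cidea*, a lipid droplet protein induced by PGC-1α in brown fat, rose from 0.222 to 11.9 CPM (log2 fold change 5.74, edgeR adjusted p = 8.22e-10). *Ucp1*, the uncoupling protein that defines brown fat, rose from 0.283 to 1.05 CPM (1.88, edgeR adjusted p = 0.00237), at no more than 55 counts in any sample, and the deiodinase *Dio2* from 17.1 to 28.9 CPM (0.76, edgeR adjusted p = 1.84e-04). *Elovl3* was at or near 0, and *Prdm16*, *Cox7a1* and *Cox8b* were not called.

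**Figure D4:**
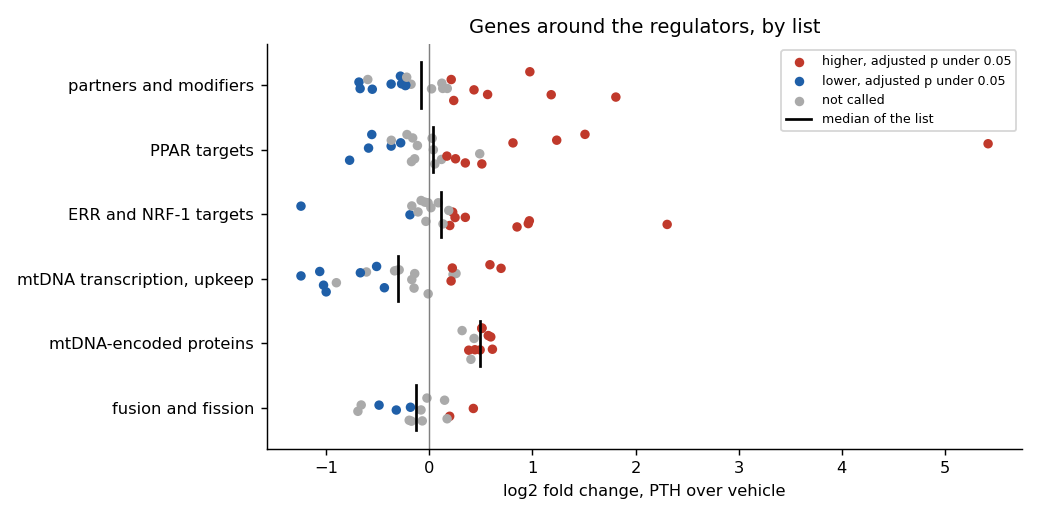
Log2 fold change (PTH over vehicle) of each tested gene of the 6 lists, with the call in color and the list median as a black bar. Medians run from -0.30 for mitochondrial DNA transcription and upkeep to 0.49 for the transcripts encoded by mitochondrial DNA, and *Fgf21* stands apart at 5.42.

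Among the genes whose log2 CPM over the 8 samples was most like that of *Ppargc1b*, out of 14061 genes whose mean reached 1 CPM, were *Gm12966* (Pearson's r = 0.995) and *Calcb* (r = 0.989). The samples form 2 treatment groups, so that these values describe mainly the step between them. *Calcb*, encoding a calcitonin gene-related peptide, rose from 0.161 to 6.75 CPM and *Gm12966* from 20.4 to 37.2 CPM.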

How the data were processed

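RNA sequencing of 4 PTH-treated and 4 vehicle-treated cultures was analysed from the table of counts that the authors deposited. After poly(A) enrichment, the authors aligned reads to GRCm38 (mm10 in the submitters' processing notes) with HISAT2, assembled transcripts with StringTie and derived counts per gene from transcript coverage with its companion script. That script assumes reads of 75 bases unless told otherwise, and the reads had 150. The value used, the annotation version and the strand setting are not given in the sources used here. Counts were not scaled between samples.

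Total counts lay between 33605610 and 56090654 per sample, and the depth limits genes with few counts. Of 47706 rows, 26477 had any count and 16736 passed edgeR's filterByExpr (minimum count 10, minimum total 15). PTH was compared with vehicle by TMM normalization and the quasi-likelihood F-test of edgeR 4.0.16 in R 4.3.3, with Benjamini-Hochberg adjustment, a threshold of 0.05 and no minimum fold change. No covariate was used. Exact permutation tests enumerated all assignments (Python 3.11.15, NumPy 2.4.6) and used log2(CPM + 0.1), and likeness used log2 CPM with a prior count of 2. Lengths and positions came from GENCODE M21 and promoters from RefSeq. The fitting steps were tested on simulated data.

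Alternatives were DESeq2 1.42.0, the fit without a filter on low counts, DESeq2's size factors within edgeR, the replicate number as a block, counts halved, counts summed by symbol, pseudocounts of 0.01 and 1 for the ratios, and each sample left out in turn. Another gene length was added after the data were seen. The text names every one of the 10 genes, from each list the largest called increase and decrease and any direction with 5 or fewer calls, and the 3 genes most like the member with the largest called change. Some genes that this rule names are not reported here. The genes and lists were chosen with earlier results of these data known. All samples entered the comparison. Sequencing reads and measurements in mice were not analysed here.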

Additional observations from a re-analysis of the deposited data

Results flagged for a closer look

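The log2 ratio of *Ppargc1a* to *Ppargc1b* stood apart in vehicle sample 3, at 3.17 against 1.47 to 1.74 in the other vehicle samples (Dixon's ratio of gap to range 0.845). That sample had the lowest *Ppargc1b* count of all samples, 17, and the highest *Ppargc1a* count of the vehicle samples, 191. Of 26 groups of values examined in this way, 1 stood apart, and chance gives about 1 in 20.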

How the results depend on the processing

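Of 140 log2 fold changes of the 10 genes recomputed under 14 alternatives, 137 kept their direction and their side of the threshold, and the other 3 were those of *Ppara* given in the report. Over the fits without one sample, the log2 fold change of *Ppara* ran from -1.42 to -0.93 (edgeR adjusted p from 0.00922 to 0.0686), and the number of downregulated genes among the 10 was 2 or 3. That of *Ppargc1b* ran from 2.66 to 3.01, that of *Ppargc1a* from 2.02 to 2.23, that of *Ppard* from 1.63 to 1.76 and that of *Pparg* from -1.56 to -1.44. Upregulated genes among the 10 numbered 3 under every alternative run. Of all tested genes 7669 were called, and 6671 to 8074 under the alternatives.

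Without one sample, upregulated counts ran from 2 to 11 for genes encoded by mitochondrial DNA, from 1 to 4 for its transcription and upkeep, from 5 to 8 for PPAR targets and from 1 to 3 for fusion and fission, and downregulated counts from 7 to 11 for mitochondrial DNA upkeep, from 3 to 6 for PPAR targets and from 1 to 2 for ERR and NRF-1 targets. Upregulated genes encoded by mitochondrial DNA numbered 5 with DESeq2 and 5 without the filter, which also left 1 upregulated in mitochondrial DNA upkeep, 5 in ERR and NRF-1 targets and 1 in fusion and fission. With DESeq2's size factors, 1 ERR and NRF-1 target was downregulated. The cause was not tested. The log2 difference of the *Ppargc1a* to *Ppargc1b* ratio ran from -0.89 to -0.32 and that of *Ppard* to *Pparg* from 3.05 to 3.28 without one sample, and both passed without vehicle replicate 4 (exact permutation, adjusted p = 0.0429). With a pseudocount of 1 the former was -0.08.

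The labels do not say what a shared replicate number means. After removal of treatment means, samples with the same number correlated at -0.041 to 0.027 across genes. With the replicate block 7003 genes were called, 5 genes encoded by mitochondrial DNA were upregulated and 1 ERR and NRF-1 target was downregulated, and the calls of the 10 genes were the same (*Ppargc1a* 2.11, *Ppargc1b* 2.91, *Ppara* -1.15). Depth limits *Ppara*, *Ppargc1b* with vehicle, *Cpt1b* and *Ucp1*, which had few counts.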
